A study of Mus musculus with 6 samples.

Results

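The data described here are the amygdala transcript levels of 9 transcription factor genes of the interneuron lineages: the COUP-TF nuclear receptor genes Nr2f1 and Nr2f2, the homeobox genes Dlx1, Dlx2, Dlx5 and Dlx6, the LIM homeobox gene Lhx6, the zinc finger gene Sp8 and the homeobox gene Prox1. They are 9 of 18193 genes that the platform annotation names for this array, and all their probe sets (groups of array probes that each read 1 transcript region) were taken by gene symbol, 17 of 45101 in the table. RNA came from the dissected amygdala of 6 male mice of the 129S1/SvImJ (S1) inbred strain, aged 8 to 10 weeks, and all 6 had undergone fear extinction training 2 h before tissue was taken. The control group was 3 mice on the control diet (label Ctrl, replicates 1, 9 and 11) and the other group was 3 mice on the zinc diet (label ZnR, replicates 3, 7 and 10). The labels do not give the zinc content of either diet, and the letter R in ZnR is not explained. Zinc diet is therefore used only as a name, since the label leaves unclear whether zinc was supplemented or restricted. There was no group without extinction training. Each mouse gave 1 array, so the spread between replicates is the spread between mice. The genes were selected on the diet difference of Nr2f2 and Dlx1 in these same arrays, together with their known lineage, so the diet differences of all 9 genes are given as a description, without a test.

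Interneurons of the forebrain are born in the ganglionic eminences of the embryo. DLX factors are expressed in all eminences and drive the GABA neuron program, LHX6 marks the medial eminence and the somatostatin and parvalbumin interneurons that come from it, and COUP-TFs, SP8 and PROX1 are associated mainly with the caudal eminence and with interneurons that express vasoactive intestinal peptide, calretinin or reelin. In the amygdala, COUP-TFII, the product of Nr2f2, is also known from excitatory nuclei, where it takes part in the patterning of the structure during development, and DLX factors mark the central and intercalated cell groups. In dissected tissue, fewer cells of a type and less RNA per cell cannot be told apart.

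Levels are log2 values as deposited, and a difference is the mean of the zinc diet mice minus the mean of the control mice. Of the 17 probe sets, 11, for 8 of the 9 genes, had a mean log2 level of at least 4 over all 6 arrays, the minimum used for the fit across all probe sets. The 6 others were 2 of Nr2f2, 2 of Prox1, 1 of Lhx6 and the 1 of Sp8. For 5 of the 11 (45.5%) the highest zinc diet mouse was lower than the lowest control mouse, as in 5.33% of all 22877 probe sets tested. Of these 5 probe sets, 4 belong to Nr2f2 and 1 to Dlx1. The reverse order held for 1 of the 11 (Dlx6), against 6.66% of all probe sets tested. Since the genes were picked with this contrast known, and since probe sets of 1 gene read the same RNA, these shares describe the choice. The median difference was -0.15 over the 11 and -0.014 over the 7 outside Nr2f2, beside 0.0091 over all probe sets tested.

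The start regions of the genes whose mice separated in the negative direction are shown for reference, together with that of Dlx2, which neighbours Dlx1. They are the 250 bases before an annotated transcript start, from RefSeq on GRCm38.p6, 5′ to 3′ on the strand of the gene. Windows were found for 7 of the 9 genes. Capitals mark the nuclear receptor half-site AGGTCA and the homeodomain core TAAT, each searched on both strands (TGACCT and ATTA).
Nr2f2, chr7:70366747-70366996, minus strand: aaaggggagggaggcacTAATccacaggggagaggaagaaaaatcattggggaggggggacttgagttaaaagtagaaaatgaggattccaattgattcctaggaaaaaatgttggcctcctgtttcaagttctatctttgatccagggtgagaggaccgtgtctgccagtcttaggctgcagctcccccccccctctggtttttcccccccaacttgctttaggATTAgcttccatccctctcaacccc
Dlx1, chr2:71529195-71529444, plus strand: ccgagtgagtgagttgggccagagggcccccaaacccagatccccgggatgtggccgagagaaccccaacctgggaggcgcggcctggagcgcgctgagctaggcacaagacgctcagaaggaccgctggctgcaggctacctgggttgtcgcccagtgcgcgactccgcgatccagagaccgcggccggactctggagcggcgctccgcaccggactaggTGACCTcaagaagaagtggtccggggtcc
Dlx2, chr2:71546755-71547004, minus strand: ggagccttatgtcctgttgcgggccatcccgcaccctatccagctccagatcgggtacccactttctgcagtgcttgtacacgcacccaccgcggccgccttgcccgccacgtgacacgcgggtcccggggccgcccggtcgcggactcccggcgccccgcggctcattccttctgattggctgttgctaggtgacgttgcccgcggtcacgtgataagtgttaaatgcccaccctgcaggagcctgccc
The Dlx1 window held 1 AGGTCA half-site, on the reverse strand and beginning 29 bases before the start. This half-site occurs in 14% of 32851 windows of the same length. The Nr2f2 window held 2 TAAT cores, beginning 233 and 25 bases before the start, a motif found in 54.9% of windows. The Dlx2 window held neither. A match of letters is a description and not a binding site.

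Nr2f2 was lower in the zinc diet mice on every one of its 4 tested probe sets. On 1416160_at the control mice had log2 levels of 8.87, 8.81 and 8.71 (replicates 1, 9 and 11) and the zinc diet mice 8.10, 7.72 and 7.97 (replicates 3, 7 and 10). The means were 8.80 ± 0.079 and 7.93 ± 0.19 (SD, n = 3 each), a difference of -0.87 ± 0.11 (SE of the limma fit), or 1.82-fold. The highest zinc diet mouse lay 0.61 log2 units below the lowest control mouse. This was the widest separation among the 17 probe sets.

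On 1416159_at of Nr2f2, the probe set of the gene with the highest mean, the control mice had 10.93, 11.23 and 11.10 and the zinc diet mice 10.49, 10.31 and 10.43, a difference of -0.68 ± 0.10 (SE). On 1436475_at the control mice had 9.30, 9.38 and 9.33 and the zinc diet mice 8.64, 8.68 and 8.82, a difference of -0.62 ± 0.080 (SE). On 1416158_at the control mice had 7.22, 6.93 and 6.97 and the zinc diet mice 6.50, 6.79 and 6.80, a difference of -0.34 ± 0.12 (SE). The mice separated by diet on all of them, with the narrowest gap, 0.13, on 1416158_at, and the size of the difference varied from 1.27-fold to 1.82-fold between probe sets of this gene.

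Within a diet the probe sets of Nr2f2 did not order the mice alike. Control replicate 1 was the lowest control mouse on 1416159_at and the highest on 1416158_at, and zinc diet replicate 3 was the highest zinc diet mouse on 1416160_at and the lowest on 1416158_at. Averaged over the 4 probe sets, the control mice had 9.08, 9.09 and 9.03 and the zinc diet mice 8.43, 8.37 and 8.50. Of the 2 Nr2f2 probe sets under the filter, 1444229_at separated the diets too, at 4.24, 3.72 and 3.70 against 3.47, 2.90 and 3.19. The other, 1431237_at, lay between 3.04 and 3.26 in all 6 mice, with a difference of -0.020 ± 0.088 (SE of the fit without a filter), and a level this low cannot be told from background here.

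Nr2f1, which encodes the other COUP-TF of the forebrain, is read by 1 probe set. Its levels were 11.91, 11.75 and 11.73 in the control mice and 11.54, 11.67 and 11.80 in the zinc diet mice. The diets overlapped through zinc diet replicate 10, and the difference was -0.12 ± 0.097 (SE). Leaving out each mouse in turn gave -0.19 to -0.058, while the probe sets of Nr2f2 stayed between -0.95 and -0.25.

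**Figure D1:**
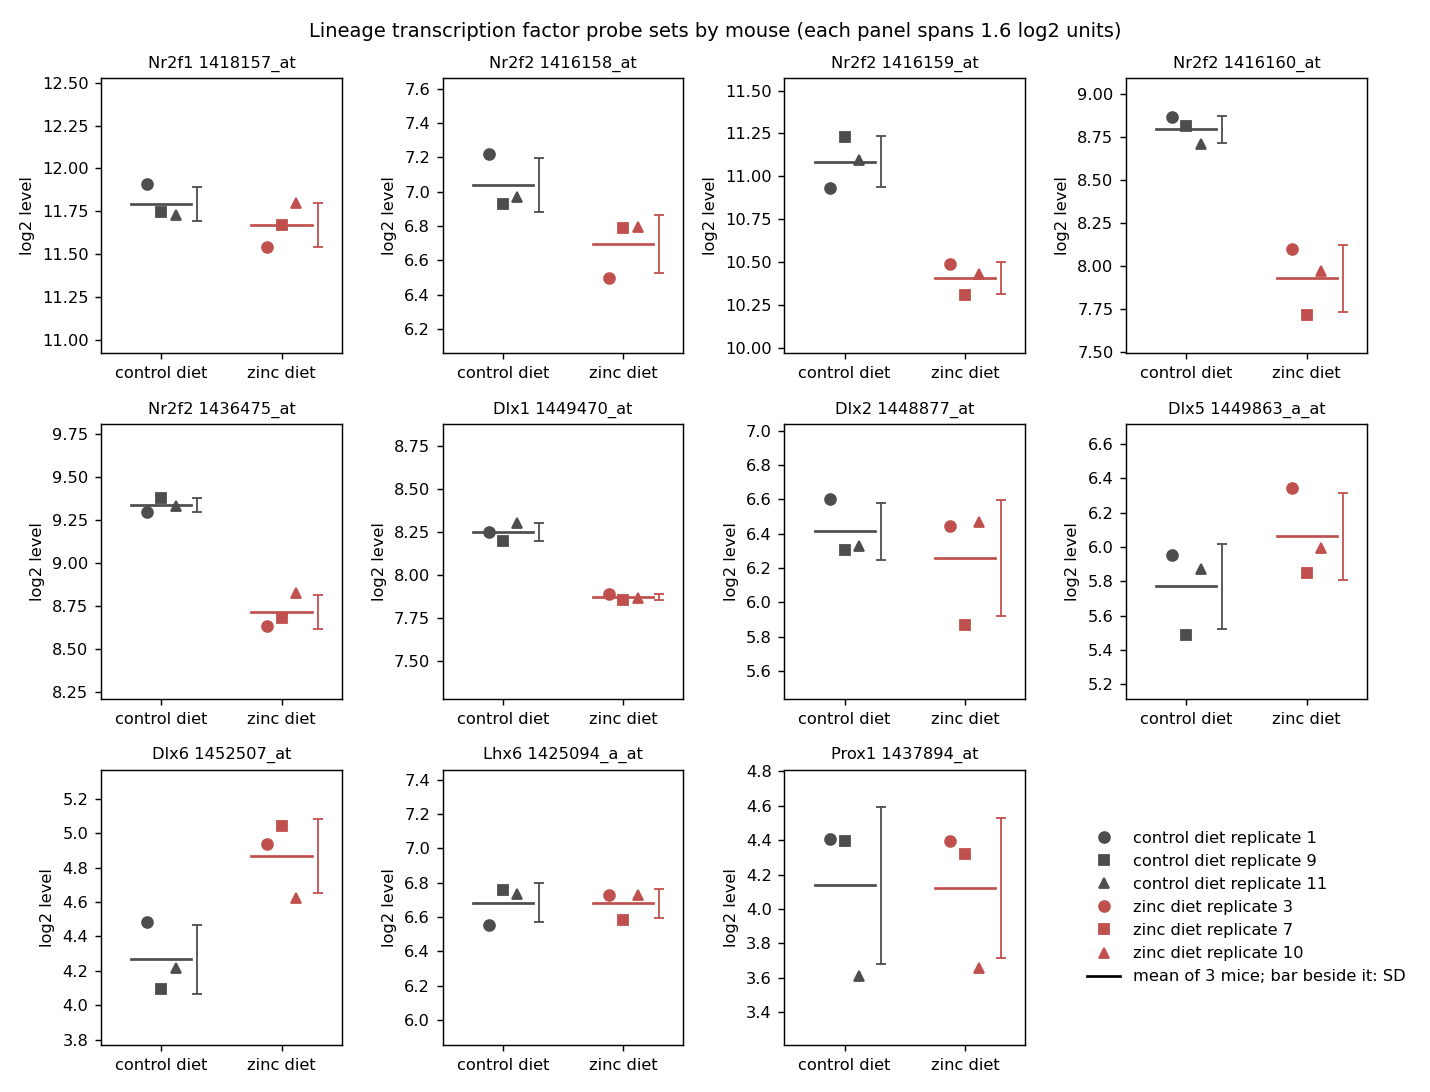
Log2 level (vertical axis) of the 11 tested probe sets in each mouse, by diet, with the mean and SD of 3 mice. The mice separate by diet on the 4 Nr2f2 panels and for Dlx1, with the zinc diet mice lower, and for Dlx6, with the zinc diet mice higher; they overlap on the other panels.

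The DLX genes lie in pairs of neighbours, Dlx1 with Dlx2 on chromosome 2 and Dlx6 with Dlx5 on chromosome 6, and each is read by 1 probe set. Dlx1, which is needed for the survival of certain cortical interneurons, was at 8.25, 8.20 and 8.30 in the control mice and at 7.89, 7.86 and 7.87 in the zinc diet mice. The diets did not overlap, and the zinc diet mice differed little among themselves (SD 0.017, against 0.051 in control mice). The difference was -0.38 ± 0.069 (SE), or 1.30-fold, and it stayed between -0.40 and -0.35 without each mouse in turn.

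Dlx2, which acts together with Dlx1 in specifying and moving GABA neurons, was at 6.60, 6.31 and 6.33 in the control mice and at 6.45, 5.87 and 6.47 in the zinc diet mice. The diets overlapped, and zinc diet replicate 7 stood below the other 5 mice. The difference was -0.15 ± 0.18 (SE), and it was 0.041 without zinc diet replicate 7.

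Dlx6 and Dlx5, which are expressed later than Dlx1 and Dlx2 as GABA neurons mature, had differences of the opposite sign. Dlx6 was at 4.49, 4.10 and 4.22 in the control mice and at 4.94, 5.04 and 4.63 in the zinc diet mice. The zinc diet mice were all higher than the control mice, by a gap of 0.14, and the difference was 0.60 ± 0.15 (SE), or 1.52-fold, at levels close to the filter of 4, so its size is uncertain. It stayed between 0.52 and 0.72 without each mouse in turn. Dlx5 was at 5.95, 5.49 and 5.87 in the control mice and at 6.34, 5.85 and 5.99 in the zinc diet mice, a difference of 0.29 ± 0.17 (SE) with the diets overlapping. It was 0.15 without control replicate 9.

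Noncoding RNAs of both DLX pairs were measured as well. Dlx6os1, transcribed from the strand opposite Dlx6, was at 5.32 ± 0.33 in control mice and 5.81 ± 0.30 in zinc diet mice (SD, n = 3), a difference of 0.50 ± 0.21 (SE) with overlap. Dlx1as, transcribed opposite Dlx1, differed by -0.071 ± 0.12 (SE), also with overlap. The strand that each of these probe sets reads was not checked here, so RNA of a gene and of its opposite strand may be mixed.

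Lhx6, the factor that medial eminence interneurons need in order to migrate and mature, did not separate by diet. Its tested probe set 1425094_a_at was at 6.55, 6.76 and 6.74 in the control mice and at 6.73, 6.58 and 6.73 in the zinc diet mice, a difference of -0.0024 ± 0.090 (SE). The 6 mice spanned a narrow range. Its second probe set lay between 2.36 and 2.61 in all mice.

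Sp8, a caudal and lateral eminence factor, had a mean of 3.84 ± 0.26 in control mice and 3.93 ± 0.14 in zinc diet mice (SD, n = 3), below the filter, with the diets overlapping. Prox1, known for caudal eminence interneurons and for granule cells of the dentate gyrus, had 1 tested probe set, 1437894_at, at 4.41, 4.39 and 3.61 in the control mice and at 4.39, 4.32 and 3.66 in the zinc diet mice. Control replicate 11 and zinc diet replicate 10 stood apart from the other 4 mice at the lower end, and the difference was -0.014 ± 0.28 (SE). It ranged from -0.28 to 0.22 without each mouse in turn. Both other Prox1 probe sets lay under 3 in every mouse.

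**Figure D2:**
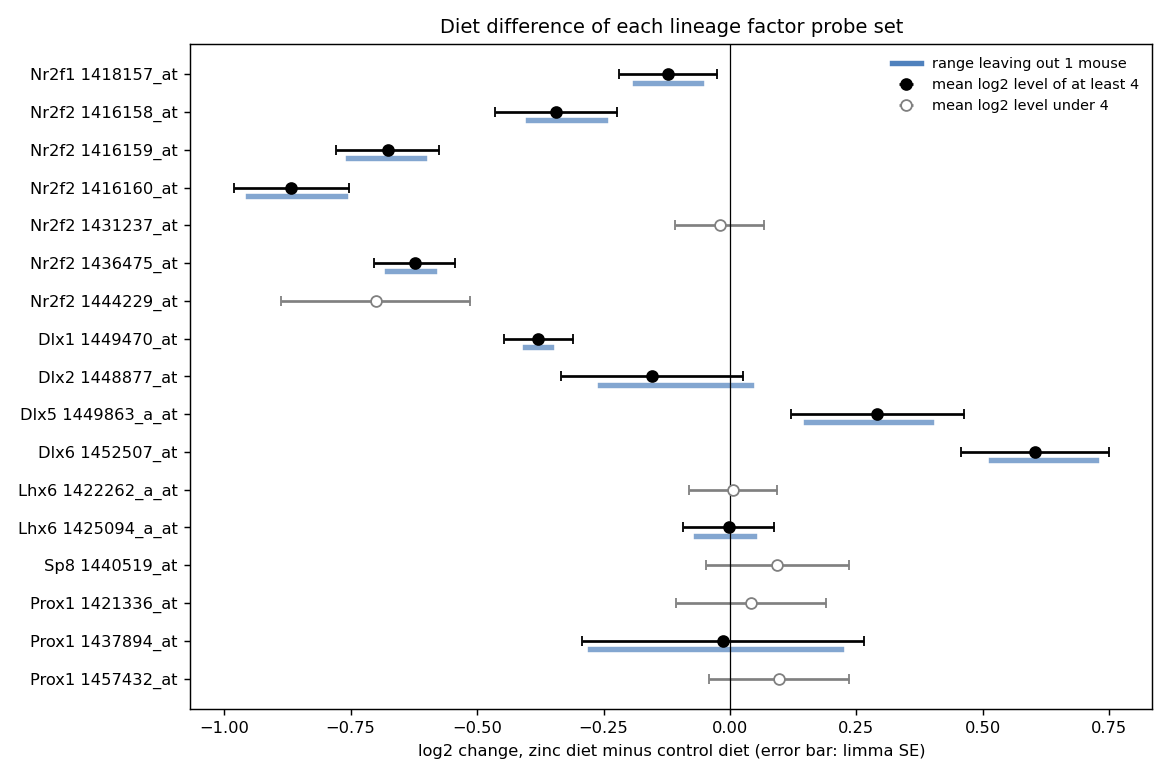
Log2 change, zinc diet minus control diet, of all 17 probe sets (points, with the limma SE as bars; open points had a mean level under 4), with the range over leaving out each mouse in turn as thick lines. The 4 tested Nr2f2 probe sets lie between -0.87 and -0.34 and Dlx1 at -0.38, whereas Dlx6 lies at 0.60, and the Dlx2, Lhx6 and Prox1 ranges span 0.

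The rest of the pathway was read from 7 lists of lineage factors, cofactors, targets and interneuron markers outside the 9 genes, with each gene read from the probe set that had its highest mean. Of 59 tested genes, 0 passed an adjusted p of 0.05 over all probe sets in limma with Benjamini-Hochberg adjustment, as was so for 0 of all 22877 probe sets. At an unadjusted p under 0.05 there were 15 genes higher and 2 lower, beside 3.63% and 2.75% of all probe sets tested. The diets separated with the zinc diet higher in 17 of the 59 (28.8%, against 6.66% of all probe sets) and lower in 4 (6.78%, against 5.33%). With all named genes read like the 59, from 1 probe set each, 8.12% lay above and 5.55% below. Lhx8 is in both counts of higher genes, although it passed the filter only through the zinc diet mice (means of 3.41 under the control diet and 5.30 under the zinc diet). Without control replicate 1, 33 of the 59 separated in either direction, against 21 with all mice; leaving out a mouse can only raise such a count, and 28.9% of all probe sets separated without that one. Several of these genes were already known to differ when the lists were written, so the shares are a description.

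Among 9 tested relatives and cofactors, 2 lay above without overlap and 0 below, beside 8.12% and 5.55% of all named genes tested. The median difference was 0.060. Bcl11a, which encodes a zinc finger protein that binds COUP-TFs, averaged 10.55 ± 0.14 under the control diet and 10.84 ± 0.047 under the zinc diet (SD, n = 3), which differ by 0.29 ± 0.093 (SE). Zfpm2, the gene of the COUP-TF cofactor FOG2, differed by -0.33 ± 0.16 (SE) and Nr2f6, the third COUP-TF gene, by -0.11 ± 0.089 (SE), both with overlap.

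Factors of the caudal and lateral eminences other than the 9 genes lay mostly on the higher side. Of 12 tested, 7 lay above without overlap and 0 below, with a median of 0.56, beside 8.12% and 5.55% of all named genes tested. The 7 were Meis1, Meis2, Ebf1, Isl1, Foxp1, Foxp2 and Zfp503. Zeb2 (0.0021 ± 0.16, SE), Tshz1, Pax6, Pbx3 and Npas3 overlapped, so the count does not describe every factor of the list. Isl1, a factor of striatal neurons, differed by 1.37 ± 0.18 (SE), Foxp2, a factor of spiny and intercalated neurons, by 0.86 ± 0.12, Zfp503, a factor of striatal precursors, by 0.64 ± 0.093 and Meis2, a homeobox factor of the lateral eminence, by 0.47 ± 0.099. Limma adjusted p-values over all probe sets were 0.22, 0.22, 0.22 and 0.44. Npas3 (-0.16 ± 0.13) was the 1 gene of the list with a negative difference. Nr2f2 and Dlx1 differed in the opposite direction from the 7 factors that separated in the same arrays.

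Of 7 tested factors of the medial eminence, Lhx8 and Satb1 lay above without overlap and the others overlapped, with a median of 0.050. Of all named genes tested, 8.12% lay above. Lhx8, a factor of cholinergic neurons related to Lhx6, was at 3.41 ± 0.68 in control mice and 5.30 ± 0.87 in zinc diet mice (SD, n = 3), so its control level lay under the filter. Satb1, which acts downstream of Lhx6, differed by 0.39 ± 0.075 (SE, limma adjusted p = 0.39). Cux2 (0.15 ± 0.11) and Maf (0.050 ± 0.080), a factor of medial eminence interneurons, were next.

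The interneuron marker genes had differences of both signs, and none passed the adjusted threshold. Of 13 caudal eminence markers, 2 lay above and 1 below without overlap (median -0.071), where 6.66% and 5.33% of all probe sets did so (8.12% and 5.55% with 1 probe set per gene). Calb2, the calretinin gene, had the largest difference among them, at 9.15 ± 0.27 under the control diet and 8.61 ± 0.41 under the zinc diet (SD, n = 3), or -0.54 ± 0.23 (SE) with overlap. Lamp5 differed by 0.20 ± 0.070 (SE), Adarb2 by -0.24 ± 0.13 and Tac2, the neurokinin B gene, by 0.44 ± 0.26. The 1 below was Reln, the reelin gene, at -0.12 ± 0.072 (SE) with a gap of 0.023. Vip, of vasoactive intestinal peptide, differed by -0.094 ± 0.13 (SE) with overlap. Of 11 medial eminence markers, 3 lay above and 2 below without overlap (median 0.038), beside the same shares of all probe sets. Tac1, the substance P gene, which spiny neurons also express, differed by 0.35 ± 0.096 (SE), Nos1, of neuronal nitric oxide synthase, by -0.42 ± 0.15, the potassium channel gene Kcnc2 by 0.18 ± 0.071 and Pvalb, of parvalbumin, by 0.74 ± 0.32.

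The genes of GABA synthesis and vesicular loading overlapped between diets. Gad1 differed by 0.16 ± 0.088 (SE), Gad2 by 0.12 ± 0.094 and Slc32a1 by 0.081 ± 0.13. Among 7 tested genes known as targets of DLX, COUP-TF or LHX6 in development, Nrp2 was the 1 gene below without overlap, beside 5.55% of all named genes tested. Nrp2 is a semaphorin receptor gene that COUP-TFII and DLX factors are both known to regulate. It was at 10.16 ± 0.063 in control mice and 9.64 ± 0.15 in zinc diet mice (SD, n = 3), a difference of -0.52 ± 0.096 (SE, limma adjusted p = 0.38). Its 3 other tested probe sets gave -0.54, -0.41 and -0.44, the last with overlap.

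Nrp1, the gene of the related receptor, differed by -0.0086 ± 0.11 (SE) on its highest probe set and by -0.37, -0.011 and -0.15 on the 3 others. The diets overlapped on all but the last, 1457198_at, where the zinc diet mice lay below the control mice at levels close to the filter (4.01 ± 0.042 and 4.16 ± 0.047, SD, n = 3). The chemokine receptor gene Ackr3, known to depend on LHX6 in migrating interneurons, differed by 0.41 ± 0.14 (SE), with the zinc diet mice above. Pak3, a kinase gene that DLX factors repress, differed by -0.14 ± 0.078 (SE).

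**Figure D3:**
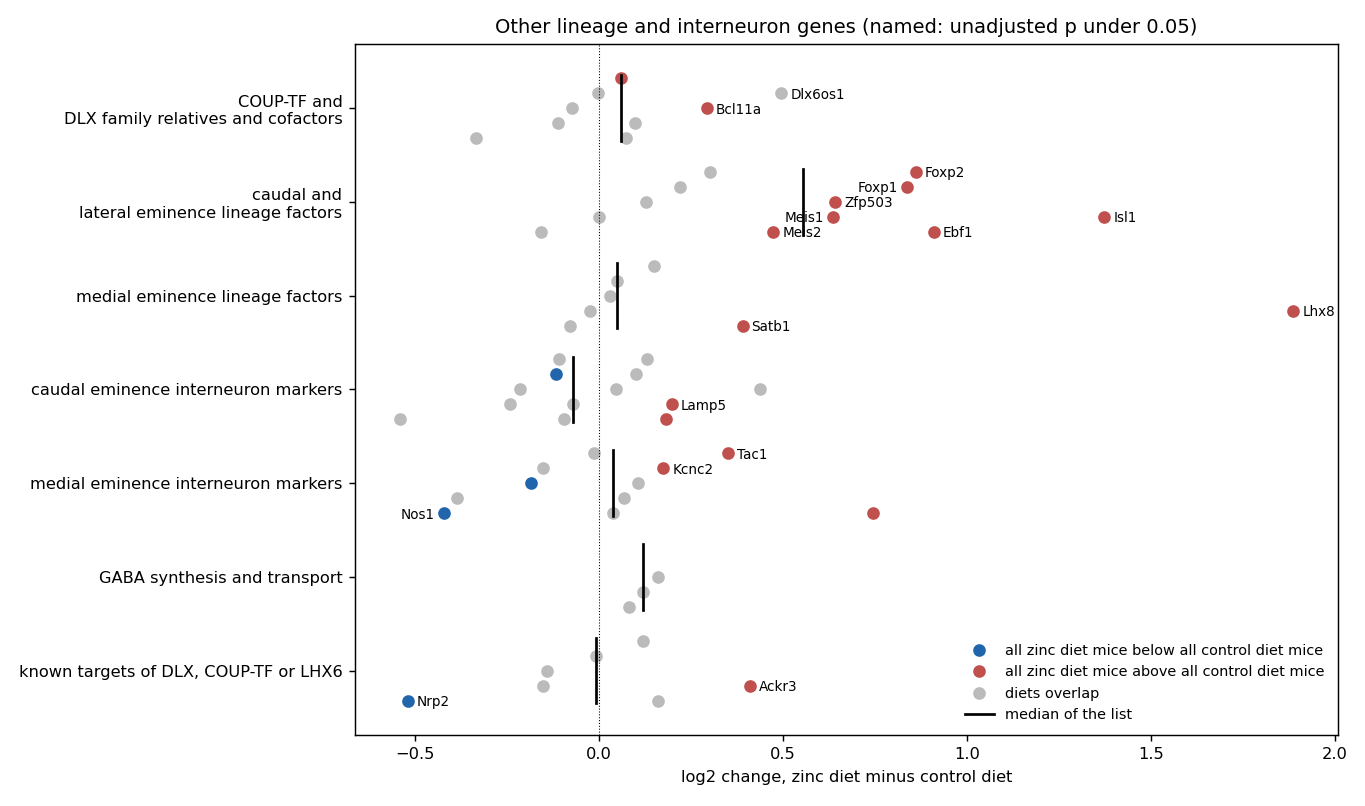
Log2 change, zinc diet minus control diet, of the tested genes of each list (1 point per gene, coloured by whether the mice separated by diet; vertical lines are list medians; names mark an unadjusted limma p under 0.05). The caudal and lateral eminence factors lie mostly to the right, with a median of 0.56, and the medians of the other lists lie between -0.071 and 0.12.

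The genes closest to Nr2f2 and Dlx1 in their pattern over the 6 arrays were found by the root mean square difference between probe sets, each centred on its own mean. For Nr2f2 1416159_at they were Lypd1 (0.068 log2 units), Cmbl (0.080), Rreb1 (0.090), Hopx (0.096) and Olfm4 (0.11), against a median of 0.38 over all named tested probe sets. For Dlx1 they were Tmem19 (0.056), Armc7 (0.061), Gpc3 (0.062), Tmem175 (0.064) and Dtx2 (0.065), against a median of 0.23. All 10 were lower in the zinc diet mice without overlap, which likeness to these members brings with it. Lypd1, an inhibitor of nicotinic receptors, was at 11.36 ± 0.17 in control mice and 10.62 ± 0.12 in zinc diet mice (SD, n = 3). The Hopx and Dtx2 probe sets may also detect related transcripts, given their design. The 6 arrays share their diets, so likeness over them does not go beyond the diet and 3 mice in each.

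Marker lists of cell types and neighbouring tissue were read in the same arrays. Over all named genes tested, each read from 1 probe set, 8.12% lay above and 5.55% below without overlap. All 10 tested striatal spiny neuron markers lay above without overlap, and their mean log2 level was 7.17 to 7.55 in the control mice and 8.72 to 9.13 in the zinc diet mice, with all 10 above the filter. Their part in the Nr2f2, Dlx1 and Dlx6 differences was not tested. Intercalated and central amygdala markers (10 genes) spanned 8.39 to 8.72 in the control mice and 8.69 to 8.81 in the zinc diet mice, with 4 genes above and 1, the peptide gene Cartpt, below. Foxp2, Tshz1, Drd1 and Prkcd in that list are also in other lists.

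Excitatory neurons of the basolateral amygdala, in some of which Nr2f2 is also known, were read from 9 markers with a probe set, and the 9 all lay above the filter. The list means overlapped, at 9.46 to 9.49 in the control mice and 9.45 to 9.67 in the zinc diet mice, but its genes separated by diet in both directions. Beside them, 8.12% of all named genes tested lay above and 5.55% below. Those below without overlap were 3 of the 9: Lmo3, at -0.43 ± 0.11 (SE), Neurod1, a factor of neuronal differentiation, at -0.36 ± 0.10, and the kinase gene Camk2a, at -0.17 ± 0.074. Those above were 2 of the 9: Rspo2, a secreted activator of Wnt signalling, at 0.77 ± 0.17 (SE), and Neurod6, at 0.67 ± 0.17. The vesicular glutamate transporter gene Slc17a6 overlapped, at 11.01 ± 0.22 in control mice and 11.02 ± 0.13 in zinc diet mice (SD, n = 3). None of the 9 passed the adjusted threshold in limma, and the part of these genes in the Nr2f2 difference was not tested.

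Among the other lists, which include cell types where Nr2f2 or Prox1 are also known, the list means overlapped between diets, while single genes of some lists did not. Their counts stand beside shares of 8.12% above and 5.55% below over all named genes tested. Endothelial and pericyte markers (11 of 14 tested) spanned 6.62 to 6.89 in the control mice and 6.75 to 6.85 in the zinc diet mice, with 1 gene above and 0 below without overlap. Meningeal and fibroblast markers (4 of 8) spanned 7.38 to 8.38 and 7.63 to 7.79, with 1 above and 1 below. The 1 below, Pdgfra, is also among those below in the oligodendrocyte list. Hippocampal and dentate markers (5 of 9) spanned 7.47 to 7.63 and 7.60 to 7.77, with 2 above and 1 below, and the dentate granule cell gene C1ql2 lay under the filter. The 1 below, Neurod1, was already counted in the basolateral list. Oligodendrocyte lineage markers (10 tested) spanned 8.83 to 9.27 and 9.12 to 9.62, with 1 above and 2 below. Hypothalamus and thalamus markers (10 of 12) spanned 4.86 to 6.22 and 5.11 to 6.47, with 1 above and 0 below. The 1 above, Lef1, passed the filter only through the zinc diet mice (means of 3.91 under the control diet and 4.12 under the zinc diet). In that list Avp was at 10.96 in control replicate 1 and at 9.84 and 9.14 in zinc diet replicates 3 and 7. It was at 4.38 and 5.63 in control replicates 9 and 11 and at 4.73 in zinc diet replicate 10. Sim1 was highest in the same mice as Avp, at 5.85, 4.69 and 5.03 against at most 3.67 elsewhere. Pmch was high in zinc diet replicate 7 and at most 4.01 elsewhere, so it passed the filter only through that mouse. The part of these genes in the Nr2f2, Dlx1 and Dlx6 differences was not tested. Astrocyte markers (8 tested) spanned 10.71 to 10.89 and 10.72 to 10.86, with 0 genes apart in either direction, and microglia markers (7 of 8) spanned 8.06 to 8.16 and 8.08 to 8.14, with 0 above and 1 below.

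Choroid plexus and ependymal markers (4 of 9 tested) were high in control replicate 9, at 9.28 against 5.62 to 6.56 in the other 5 mice. Kcnj13 and Kl passed the filter only through control replicate 9, at 7.56 and 6.17 there and at most 3.45 and 4.02 elsewhere. Ttr and Clic6 lay above 4 in every mouse and were highest there too, at 14.68 and 8.70 against at most 12.27 and 6.81. Without control replicate 9 the Nr2f2 probe sets 1416158_at, 1416159_at, 1416160_at and 1436475_at gave -0.40, -0.60, -0.86 and -0.60, Dlx1 gave -0.40 and Dlx6 0.52.

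**Figure D4:**
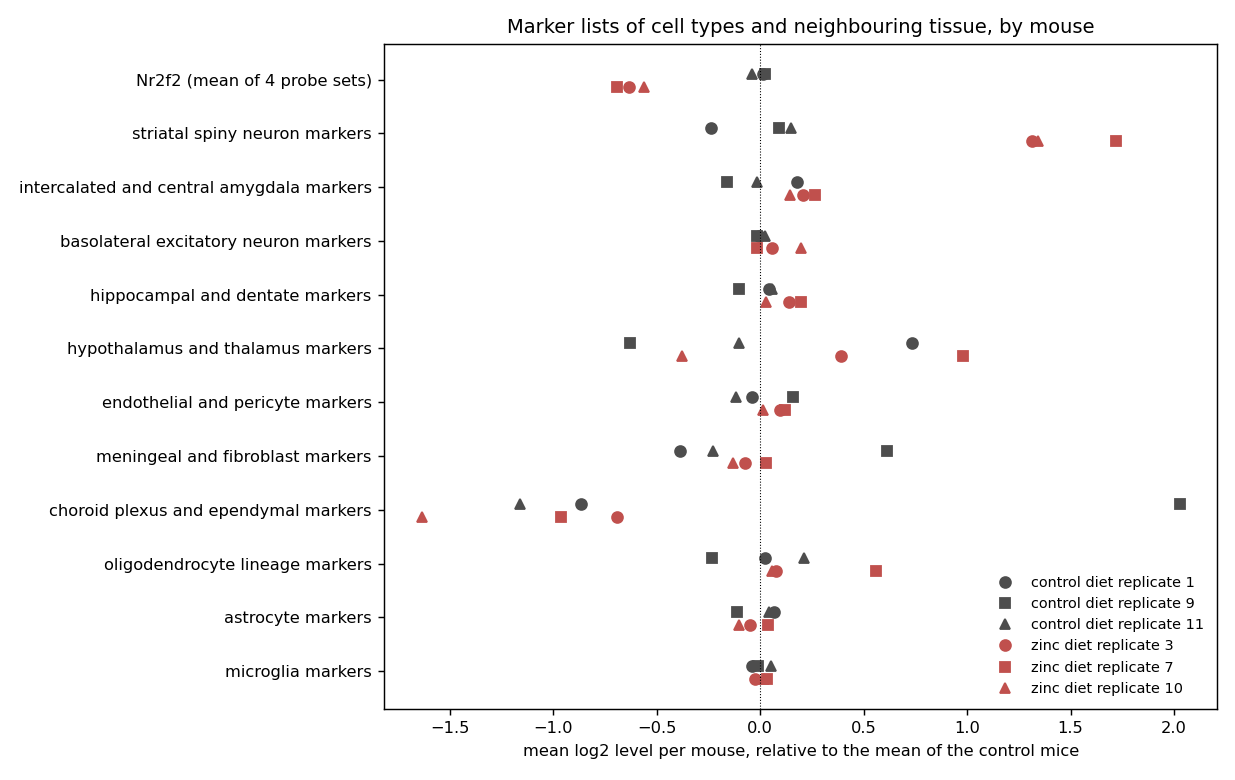
Mean log2 level of each marker list in each mouse, relative to the mean of the 3 control mice (horizontal axis), with the Nr2f2 mean over its 4 tested probe sets on top. The zinc diet mice lie to the right for the striatal list and to the left for Nr2f2, and control replicate 9 lies far to the right for the choroid plexus list.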

How the data were processed

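RNA from the amygdala of 6 mice was labelled by a 3′ in vitro transcription kit from 500 ng each and hybridised to the Affymetrix Mouse430_2 array, per the labels' protocols. The values are log2 probe set levels from the authors' deposited table. The submitters' processing notes list R 2.15.1 and GCRMA 2.28.0 and give them no role, and their options are not given in the sources used here. Whether the values are log2 was judged from their range, and it is unknown whether they were centred (array medians 4.04 to 4.09; correlations between arrays 0.996 to 0.998 over all probe sets but the controls). No scanner files, and so no detection calls, were used here, GCRMA can stretch or compress low levels, and the number of arrays limits precision.

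Of 45101 probe sets, 64 controls were left out, and 22877 whose log2 level averaged 4 or more over the arrays were tested. The supplied platform annotation gave 1 symbol for 34945 probe sets outside the controls and several for 932, and no probe set with several symbols held one of the 9 genes. Symbols were checked through Entrez numbers against the RefSeq table of GRCm38.p6 (34741 matched, 0 changed). The diet effect was fitted with limma 3.58.1 (lmFit, then eBayes, with no further term; R 4.3.3), with two-sided p-values and Benjamini-Hochberg adjustment over all probe sets tested. SEs are the moderated SEs of that fit; those of probe sets under the filter come from the fit without it. In simulated data for this comparison on 22877 probe sets, the fit recovered 68% of 100 with a true change of 1 log2 unit and 93% of 100 with a true change of 2, with 8 false calls. The simulation drew independent normal noise with the SD of each probe set, so it checks the fit and does not give the power in these arrays. In the arrays, Scn4b differed by 3.41 and Rgs9 by 1.80, with limma adjusted p-values of 0.21 and 0.076.

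The members, the lists, the tests and the alternatives were chosen with earlier results of these data known. All probe sets of the 9 genes are reported. Of each lineage list up to 4 tested genes with the smallest unadjusted p, and Nrp1, Nrp2, Gad1 and Gad2, were to be named, with the 5 genes most alike in pattern to Nr2f2 and Dlx1; other genes named were chosen after their values were seen. Alternatives were quantile normalization, median centring, array weights, trend and robust eBayes, a floor of 4 on the values, no filter or a filter at a mean of 6, the title number as a covariate, 1 probe set per gene (for the counts over all probe sets) and leaving out each mouse.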

Additional observations from a re-analysis of the deposited data

How the results depend on the processing

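No paired analysis was possible because the diets share no replicate number. The count of tested probe sets of the 9 genes with all zinc diet mice below all control mice was 5 of 11. Array weights, the title number and trend and robust eBayes cannot alter this count, and leaving out a mouse can only keep or raise it (5 or 6, where 8.2% to 13.9% of all probe sets were below, against 5.33%). With quantile normalization, median centring and the floor of 4 it was 5, beside 6.28%, 4.32% and 5.32% of all probe sets, with no filter 6 of 17 (5.57%) and with a mean of at least 6 it was 5 of 8 (5.27%). Their median difference of -0.15 was -0.36 with a mean of at least 6, where 8 probe sets were tested, and -0.020 with no filter; leaving out each mouse it ran from -0.28 (control replicate 11) to -0.068 (control replicate 1). The differences of the tested Nr2f2 probe sets, Dlx1 and Dlx6 had 1 sign in every alternative run for them, and since their mice do not overlap, leaving out a mouse could not turn it; Dlx2, Lhx6 and Prox1 took both signs. Over all probe sets, 0 passed the adjusted threshold, against 1 with 1 probe set per gene, 2 with a mean of at least 6, 1 with the title number as a covariate and 3 with trend and robust eBayes, and 0 whichever mouse was left out. The count at an unadjusted limma p under 0.01 was 349 of 22877, against 628 of 22877 with array weights and 550 of 45037 with no filter. With each of the 6 mice left out in turn, the count ran from 176 (without zinc diet replicate 7) to 558 (without control replicate 1). Of the 59 lineage list genes, 21 did not overlap between diets, from 23 to 33 when 1 mouse was left out, which can only raise it (33 without control replicate 1, where 28.9% of all probe sets did not overlap, against 12% with all mice). With all mice and 1 probe set per gene, as the lists were read, 13.7% did not overlap. The median difference of all probe sets stayed between -0.0025 and 0.021. Low levels are limited by the lack of a detection call.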
